A study of Mus musculus with 2 samples.

Results

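The genes described here are 10 that cause autosomal recessive primary microcephaly when mutated in humans: Aspm, Cdk5rap2, Mcph1, Wdr62, Cenpj, Stil, Cep152, Cep135, Cep63 and Sass6. They were taken by symbol from a table of 43437 genes, where each had 1 row, and from a table of 103615 isoforms, where they had 41 rows together. Polyadenylated RNA came from wild-type ICR mouse fetuses, an outbred stock, at embryonic day 12.5, with 1 library of whole body and 1 of telencephalon, the front of the embryonic brain that forms the cerebral cortex and basal ganglia. No treatment was given, and the labels do not state how many fetuses were used, their sex, or whether the head was part of the whole body. Values are FPKM, in which the fragments of a gene are divided by its transcript length and by sequencing depth, so that levels can be compared between genes. A group of 1 library gives no spread between replicates, so differences were not tested and p-values are absent.

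Primary microcephaly is a congenital reduction of brain size with a largely normal architecture, and most of its genes encode proteins of the centrosome and spindle pole. A dividing cell duplicates its centrioles once per cycle: Cep63 and Cep152 form a scaffold around the parent centriole that recruits the kinase Plk4, Stil and Sass6 then build the cartwheel of the new centriole, and Cenpj and Cep135 act in its wall and growth. Cdk5rap2 organises the surrounding material that nucleates microtubules, Aspm and Wdr62 act at the spindle poles, and Mcph1 restrains chromosome condensation and takes part in the DNA damage response. In the telencephalon these functions are known above all from radial glia, the progenitors that divide at the ventricle.

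The depth behind the FPKM values was about 29300000 fragments for whole body and 22800000 for telencephalon. It was read from the steps between low FPKM values and need not equal the number sequenced. Of 12 telencephalon markers 11 were at least 2-fold higher in the telencephalon library (summed level 968 against 55.7 FPKM), Dlx2 among them (212 against 5.40). Liver markers summed to 10.5 FPKM in telencephalon and 2632 in whole body, and all 10 were at least 2-fold lower in telencephalon, 2 of them listed at 0. All 9 muscle markers were lower (3.91 and 677 FPKM summed), as were 9 of 10 connective tissue markers (47.3 and 2182) and 8 of 10 erythroid markers (2258 and 4628). By the mean of both libraries, the most abundant were Afp (1.03 in telencephalon and 843 in whole body) and Alb (1.21 and 833) for liver, Actc1 (0.734 and 423) and Myl4 (1.15 and 68.2) for muscle, Col1a1 (3.16 and 527) and Col2a1 (8.98 and 469) for connective tissue, and Hbb-y (2153 and 3360) and Hba-a1 (35.7 and 403) for red cells. In RNA from whole tissue, fewer cells of a type and less RNA per cell cannot be told apart.

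All 10 genes were expressed at modest levels in both libraries, and none differed by 2-fold. Their levels ran from 2.24 to 9.09 FPKM in whole body and from 1.99 to 12.9 in telencephalon, and their sum was 56.1 and 57.4 FPKM. The telencephalon sum and its highest level, that of Wdr62, include 4.49 FPKM of a short isoform, Wdr62-203, on about 4 fragments. Without that isoform the telencephalon sum would lie below that of whole body. On the log2 ratio of FPKM + 1 (telencephalon over whole body), 0 of 10 were at least 2-fold higher and 0 of 10 at least 2-fold lower, beside 9.39% and 21.2% of the 14987 genes that reached 1 FPKM in at least 1 library, or 30.5% in both directions together. At 1.5-fold, a threshold added after the values were seen, the count was again 0 of 10, beside 48.6% of all measured genes. That count rests on the added 1 FPKM and the scaling: Mcph1 was at least 1.5-fold lower with a smaller or no pseudocount and by fragments, and Wdr62 at least 1.5-fold higher in TPM. The median log2 ratio was -0.05 for the 10 genes and -0.16 for all measured genes. By FPKM 5 genes were higher in telencephalon (Wdr62, Cenpj, Aspm, Cep63 and Cdk5rap2) and 5 lower (Mcph1, Cep135, Stil, Sass6 and Cep152). All 10 passed the floor of 1 FPKM in both libraries, so none was measured through 1 library alone.

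**Figure D1:**
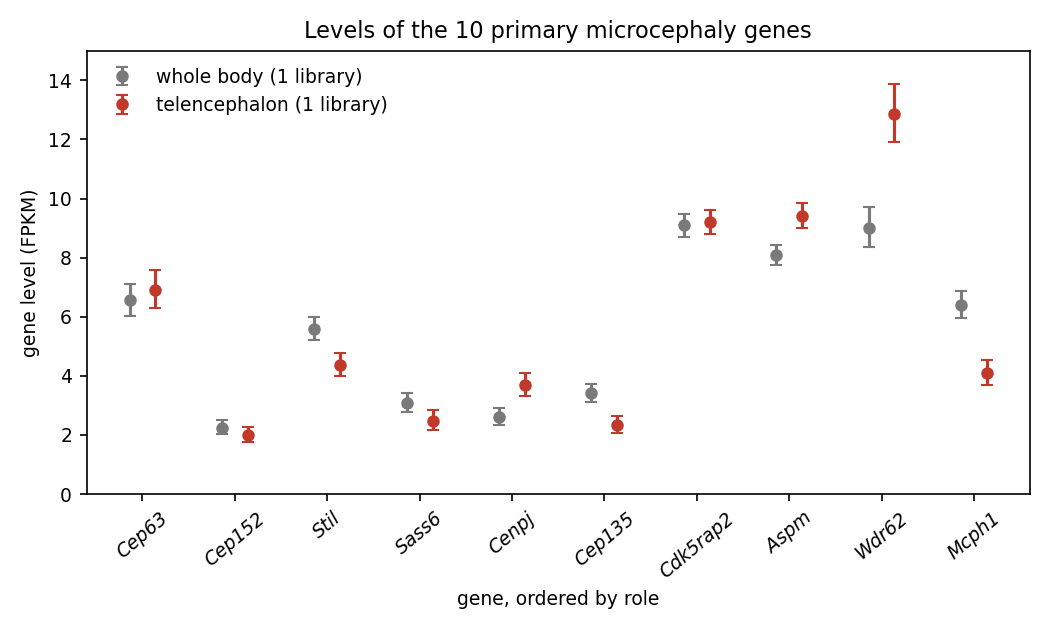
Level of each gene in FPKM (vertical axis) in the whole-body library (grey) and the telencephalon library (red), with genes ordered by role. Bars are 95% Poisson intervals of the estimated fragments summed over isoforms, scaled to the gene FPKM, and cover counting error only. They are too narrow where a short isoform carries much of the FPKM on few fragments, as for Wdr62 in telencephalon. Wdr62 at 12.9 FPKM in telencephalon, of which 4.49 rest on about 4 fragments, is the highest point and Cep152 at 1.99 the lowest.

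The error that can be stated is that of counting. Each FPKM was turned into an estimated number of fragments, summed over the isoforms of the gene, and the ratio of the fragments was scaled by depth and given with its exact 95% binomial interval. The interval lay above 1 for 4 genes (Cenpj, Wdr62, Cdk5rap2 and Aspm), below 1 for 4 (Mcph1, Cep135, Stil and Sass6) and spanned 1 for Cep63 and Cep152. Fragments are not divided by isoform length, and the FPKM ratio of Cdk5rap2 was 1.01. The intervals do not cover variation between fetuses or libraries, the choice of scaling, or the division of reads among isoforms. The libraries carry no molecular identifiers.

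**Figure D2:**
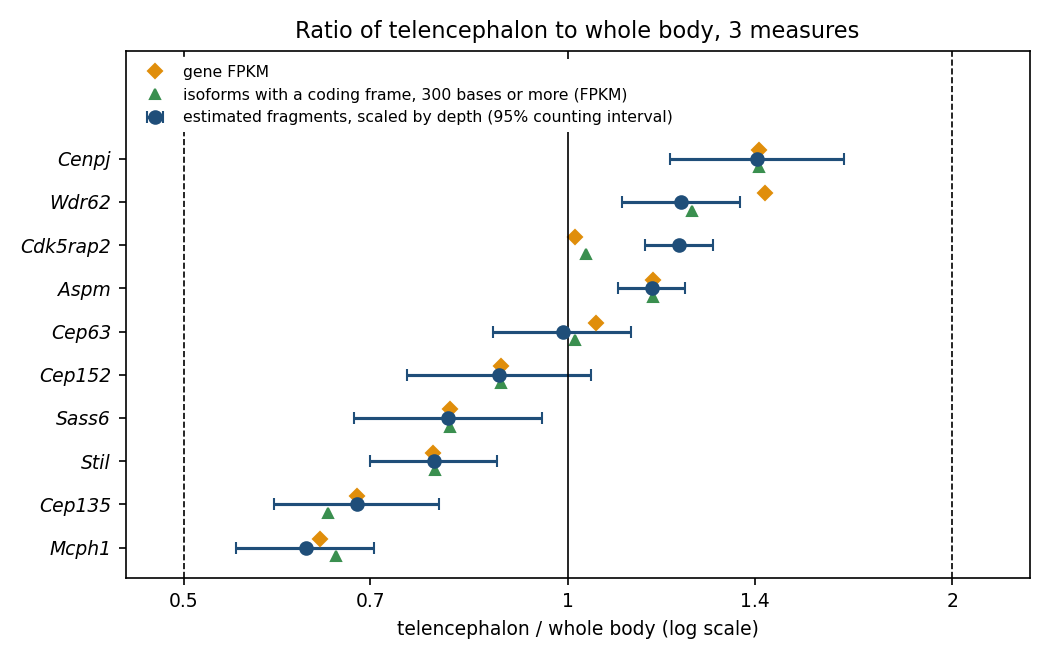
Ratio of telencephalon to whole body on a log axis for each gene, from estimated fragments (blue circles with 95% counting intervals), gene FPKM (orange diamonds) and the FPKM of isoforms with a coding frame and 300 bases or more (green triangles). All plotted points lie between the dashed 2-fold lines, and the measures part most for Wdr62 and Cdk5rap2. The green triangles include isoforms annotated for nonsense-mediated decay, the only kind listed for Sass6. Over its protein-coding isoforms alone, which are not plotted, Cdk5rap2 stood at 8.92 FPKM in telencephalon against 4.41 in whole body. That is past 2-fold in plain FPKM.

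The genes that start centriole duplication were at or slightly below their whole-body level. Cep63, the scaffold protein that brings Cep152 to the parent centriole (chromosome 9, 102584588 to 102626534 on GRCm38), had levels of 6.91 FPKM in the telencephalon library and 6.56 in the whole-body library. Its fragment ratio was 0.990 (interval 0.874 to 1.12), on 453 and 588 fragments. Cep152, its partner in recruiting Plk4 (chromosome 2, 125563088 to 125625113), stood at 1.99 and 2.24 FPKM and was the least abundant of the 10 in both libraries. Its ratio was 0.883 (0.748 to 1.04). Neither gene differed beyond counting error, though for Cep152 a difference of up to 1.34-fold remains within the interval.

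The cartwheel genes were lower in telencephalon by more than counting error at the depth scaling used. Of all measured genes 43.0% had a lower log2 ratio than Stil and 46.4% a lower one than Sass6. Stil, which binds Plk4 and brings Sass6 to the site of assembly (chromosome 4, 115000159 to 115043196), was present at 4.38 FPKM in telencephalon against 5.59 in whole body. It was 1.27-fold lower by fragments (1.14 to 1.43), on 481 and 788 fragments. Sass6, the structural protein of the cartwheel hub (chromosome 3, 116594982 to 116631004), stood at 2.49 and 3.08 FPKM, 1.24-fold lower (1.05 to 1.47). Plk4 itself, the kinase that these proteins recruit or bind, stood at 9.29 against 14.2 FPKM, the lowest log2 ratio (-0.56) of the 21 measured partners in centriole duplication and elongation. Summed over Cep63, Cep152, Stil and Sass6 the level was 15.8 FPKM in telencephalon and 17.5 in whole body.

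The pair that act in the centriole wall went opposite ways. Cenpj, which binds tubulin and sets the length of the growing centriole (chromosome 14, 56526761 to 56575425), reached 3.69 FPKM in telencephalon against 2.61 in whole body. On 338 and 309 fragments it was 1.41-fold higher (1.20 to 1.65), the largest fragment ratio among the 10. Cep135, a cartwheel and wall protein (chromosome 5, 76588698 to 76646466), stood at 2.33 and 3.41 FPKM. It was 1.46-fold lower (1.26 to 1.70), on 277 and 521 fragments. Their sum was 6.02 FPKM in telencephalon and 6.03 in whole body.

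The spindle pole genes were above their whole-body level by gene FPKM and by fragments. For Wdr62 the direction by FPKM turned on short isoforms. Aspm, which holds microtubule minus ends at the pole and whose mutations are the most frequent cause of the human disorder (chromosome 1, 139454772 to 139494091), reached 9.42 FPKM in telencephalon against 8.09 in whole body. It has a single isoform in the table, of 9867 bases, and the most fragments of the set (2047 and 2263), so its ratio of 1.16 had a narrow interval (1.09 to 1.23). Wdr62, a spindle pole scaffold (chromosome 7, 30240138 to 30280419), stood at 12.9 FPKM against 9.01, a ratio of 1.43 by gene FPKM. By fragments the ratio was 1.23 (1.10 to 1.36), on 680 and 713 fragments. Of the telencephalon level 4.49 FPKM belong to Wdr62-203, a short model on about 4 fragments, and without that model alone the gene stood at 8.36 against 9.01 FPKM, a ratio of 0.928, so that the direction by FPKM turned.

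Mcph1 was lower in telencephalon, with the largest fold difference of the set in FPKM and in fragments. This gene, which encodes microcephalin (chromosome 8, 18595131 to 18803189), was present at 4.09 FPKM in telencephalon against 6.40 in whole body, on 378 and 780 fragments. It was 1.61-fold lower by fragments (1.42 to 1.82) and its log2 ratio of FPKM + 1 was -0.54, below that of all other members, yet 33.1% of all measured genes had a lower one. The largest difference was that of Wdr62 in other scalings: its log2 ratio was 0.65 in TPM beside -0.44 for Mcph1, 0.53 beside -0.49 after a common upper quartile, and 0.56 beside -0.49 after rescaling without small RNA, mitochondrial and the 10 most abundant genes. At the other end, 79.5% of measured genes had a lower log2 ratio than Wdr62 (0.47).

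The order of the levels was similar at its ends in both libraries. In whole body Cdk5rap2 (9.09 FPKM), Wdr62 (9.01) and Aspm (8.09) came first, and 7 of the 9 neighbouring pairs in the order had overlapping counting intervals. The steps without overlap were those from Aspm to Cep63 and from Stil to Cep135. In telencephalon Wdr62 came first, followed by Aspm and Cdk5rap2 (9.21 FPKM), and 5 of 9 neighbouring pairs overlapped, Aspm and Cdk5rap2 among them. These intervals rest on the fragments summed over isoforms. They are too narrow for Wdr62 and Cep63, where short isoforms carry FPKM on few fragments, so steps next to these genes are less certain. The first place of Wdr62 rests on Wdr62-203: without that model it came after Aspm and Cdk5rap2, at 8.36 FPKM, and over its isoforms with a coding frame it stood at 7.58. Cep152 was last in both. Against all measured genes the set was of middle to low abundance: 60.4% of them had a lower level than Wdr62 in telencephalon, and 24.2% a lower level than Cep152.

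Cdk5rap2, whose product anchors gamma-tubulin complexes at the centrosome, had nearly the same gene level in both libraries and a different make-up of isoforms. The gene (chromosome 4, 70216856 to 70410443) was present at 9.21 FPKM in telencephalon against 9.09 in whole body. The full-length coding isoform, Cdk5rap2-206, reached 7.55 FPKM in telencephalon against 4.41 in whole body, or 82.0% and 48.5% of the gene. Cdk5rap2-201, which the annotation gives as a target of nonsense-mediated decay, stood at 0.281 and 4.51 FPKM, or 3.06% and 49.6%. In estimated fragments this isoform had 32 in telencephalon and 651 in whole body, and the coding isoform 1981 and 1488. A short coding model of 1171 bases, Cdk5rap2-204, made up 11.1% in telencephalon on about 19 fragments. Over all isoforms the fragment ratio was 1.22 (1.15 to 1.30), higher than the FPKM ratio of 1.01, because the isoform that dominates in telencephalon is longer and yields more fragments per molecule.

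These isoforms differ in a skipped exon pair early in the coding sequence. Cdk5rap2-201 lacks exons 4 (chr4:70380191-70380301) and 5 (chr4:70376793-70376869) of Cdk5rap2-206, 188 bases together, which is not a multiple of 3, so the reading frame shifts and the coding sequence ends after 76 codons in place of 1822. The stretch is printed to show what is missing and where the frame ends, in the sense of the gene (minus strand of GRCm38, spliced, from the last 30 bases of exon 3 onward). Capitals mark exons 4 and 5 in the first sequence and the resulting stop codon in the second.
Cdk5rap2-206, exons 3 to 6: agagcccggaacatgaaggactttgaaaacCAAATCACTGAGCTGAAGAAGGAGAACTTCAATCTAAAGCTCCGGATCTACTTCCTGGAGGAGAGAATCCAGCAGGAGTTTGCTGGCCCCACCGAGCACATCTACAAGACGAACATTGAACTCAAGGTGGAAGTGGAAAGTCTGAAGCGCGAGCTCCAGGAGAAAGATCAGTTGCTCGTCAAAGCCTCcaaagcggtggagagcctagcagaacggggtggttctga
Cdk5rap2-201, exon 3 joined to exon 6 of Cdk5rap2-206: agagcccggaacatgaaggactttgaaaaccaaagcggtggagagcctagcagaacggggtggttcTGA

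The same isoform pair also differs elsewhere. The first exon of Cdk5rap2-201 has 207 bases where that of Cdk5rap2-206 has 232. Cdk5rap2-201 lacks exon 12 (219 bases), and its last exon is 92 bases long where that of Cdk5rap2-206 has 6259, so 52.1% of the length of the longer isoform lies in a 3′ stretch that the shorter one does not have. The isoform values do not tell which of these features the assigned reads came from. Use of exons 4 and 5, of exon 12, of the first exon and of the long 3′ end thus cannot be told apart.

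The gene FPKM of Wdr62 in telencephalon was raised by a short isoform with few reads. Wdr62-203, a retained-intron model of 374 bases, was assigned 4.49 FPKM in telencephalon and less than 1 fragment in whole body, and made up 35.0% of the gene in telencephalon. After subtracting the fitted 336 bases its usable length is 38 bases, which gives about 4 fragments, and even at its full length it would have 38, of about 680 for the gene. Wdr62-207, another retained-intron model of 648 bases, went the other way with 0.780 against 2.82 FPKM, on about 6 and 27 fragments. The full-length coding isoform Wdr62-201 stood at 3.37 and 2.83 FPKM, on 339 and 366 fragments, the shorter coding isoform Wdr62-204 at 2.70 and 2.31, and Wdr62-205, annotated for nonsense-mediated decay, at 1.51 and 0.923. Summed over these 3 the level was 7.58 against 6.06 FPKM, a ratio of 1.25. Leaving out Wdr62-203 alone gave 0.928, since Wdr62-207 then still counted in whole body. The direction of the FPKM sum for Wdr62 thus depends on how its short models are treated.

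Of the 374 bases of Wdr62-203, 313 lie in exons that Wdr62-201 also has, 4 lie at its 5′ end outside them and 57 are intron. The sequence below shows the 57 intron bases (capitals) and the first 30 bases of exon 31 of Wdr62-201 that follow (chr7:30241798-30241884, minus strand, GRCm38). A stretch this short can be told from the spliced isoforms only by reads that enter it.
Wdr62-203, intron and exon 31: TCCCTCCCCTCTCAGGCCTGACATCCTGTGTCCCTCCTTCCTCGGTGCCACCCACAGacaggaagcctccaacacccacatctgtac

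**Figure D3:**
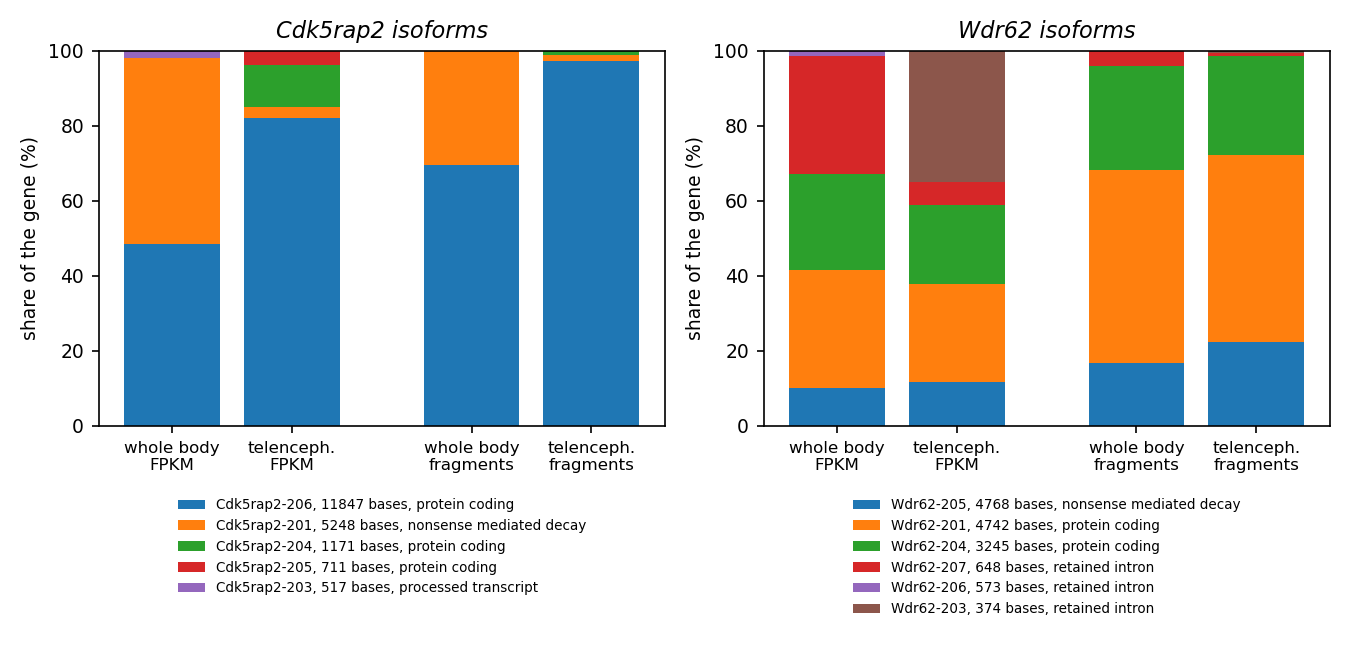
Make-up of Cdk5rap2 and Wdr62 by isoform (colours, with annotated length and type), as percent of the gene's FPKM (left pair of bars in each panel) and of its estimated fragments (right pair). Cdk5rap2-201 shrinks from 49.6% to 3.06% of FPKM between whole body and telencephalon, and Wdr62-203, with 35.0% of FPKM in telencephalon, is barely visible in fragments.

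The other members with several isoforms had the same leading isoform in both libraries. An isoform's share differed by at least 25 percentage points in 2 of the 6 members with several isoforms (Cdk5rap2 by 46.6 and Wdr62 by 35.0), beside 12.9% of the 7925 genes with several isoforms and 2 FPKM or more in both libraries, a threshold chosen after the values were seen. The shift of Wdr62 is that of Wdr62-203, on about 4 fragments in telencephalon and 0 in whole body, while the share of Wdr62-207 fell by 25.2 points on about 6 and 27 fragments, so Cdk5rap2 is the member whose shift rests on many fragments. The shift of Cdk5rap2 exceeded that of 97.5% of these genes. Stil-201 held 97.1% and 96.7% of Stil in telencephalon and whole body, Mcph1-201 held 90.9% and 86.5% of Mcph1, and Cep135-202 held 86.6% and 83.9% of Cep135. For Mcph1 the decay-annotated Mcph1-202 stood at 0.0474 against 0.439 FPKM, on about 4 and 46 fragments. For Cep135 the other coding isoform, Cep135-201, with 25 exons in place of 26, had about 1 and 38 fragments. Cep63 was led by Cep63-206 (63.5% and 69.4%), which has 538 codons and a long last exon of 2425 bases, while Cep63-201 with 758 codons held 8.45% and 5.35%. A retained-intron model of 484 bases, Cep63-208, took 24.5% and 20.0% of Cep63 on about 6 fragments in each library. Aspm, Cenpj, Cep152 and Sass6 had a single isoform each, which for Sass6 carries the annotation of nonsense-mediated decay.

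Other genes of the centrosome and of cell division also lay mostly within 2-fold. Counts and medians of the lists are on the FPKM + 1 scale, while levels are plain FPKM. Over 9 further lists 149 of 155 measured genes were within 2-fold, 3 were higher and 3 lower, or 3.87% past 2-fold beside 30.5% of all measured genes (median log2 ratio -0.09). Without the added 1 FPKM, 9 of the 155 were past 2-fold (5.81%, beside 38.0% of all measured genes), the further 3 being Tubg2, Cep250 and Clasp1. Of 21 partners in centriole duplication and elongation none passed 2-fold (median -0.09), with Cntrob, a centriole duplication protein, highest at 14.9 against 8.25 FPKM and Ppp1r35 at 31.0 against 18.1. Of 17 genes of pericentriolar material and gamma-tubulin complexes none passed on the FPKM + 1 scale (median 0.13) and 2 did in plain FPKM. The 2 highest log2 ratios and the lowest were those of Akap9, a scaffold of Golgi and centrosome, at 19.0 against 9.90 FPKM, Tubg2 at 5.76 against 2.81 (2.05-fold higher) and the centriole linker gene Cep250 at 3.16 against 6.75 (2.13-fold lower). Of 11 satellite genes Ssx2ip was lower (8.95 against 21.4) and the other 10 were within 2-fold (median 0.04), with Bbs4 at 9.18 against 4.92 and Cep131 at 15.5 against 10.5. Of 13 mother centriole genes Cep170 (61.2 against 26.5) and Ccdc120 (24.1 against 10.9) were higher and the rest within 2-fold (median 0.12), Cep164 having the lowest ratio (6.97 against 9.59).

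Spindle pole genes and further microcephaly genes were also mostly within 2-fold. Of 20 spindle pole and augmin genes Gpsm2, which orients the spindle by linking it to the cell cortex, was 3.66-fold lower in plain FPKM (15.1 against 55.2 FPKM), and the other 19 were within 2-fold on the FPKM + 1 scale (median -0.06). Clasp1, at 60.7 against 30.3, was just past 2-fold in plain FPKM. Of 25 other microcephaly genes, Mfsd2a, a lipid transporter of the brain endothelium, was 3.35-fold higher in plain FPKM (22.0 against 6.56) and the other 24 were within 2-fold (median -0.10). Among these Phc1, a Polycomb subunit, stood at 115 against 60.5 FPKM. The 12 condensin and checkpoint partners of Mcph1 were all within 2-fold (median -0.23), from Brca2 (1.94 against 3.73) to Ncapd2 (80.2 against 74.4) and Set (72.4 against 63.3).

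**Figure D4:**
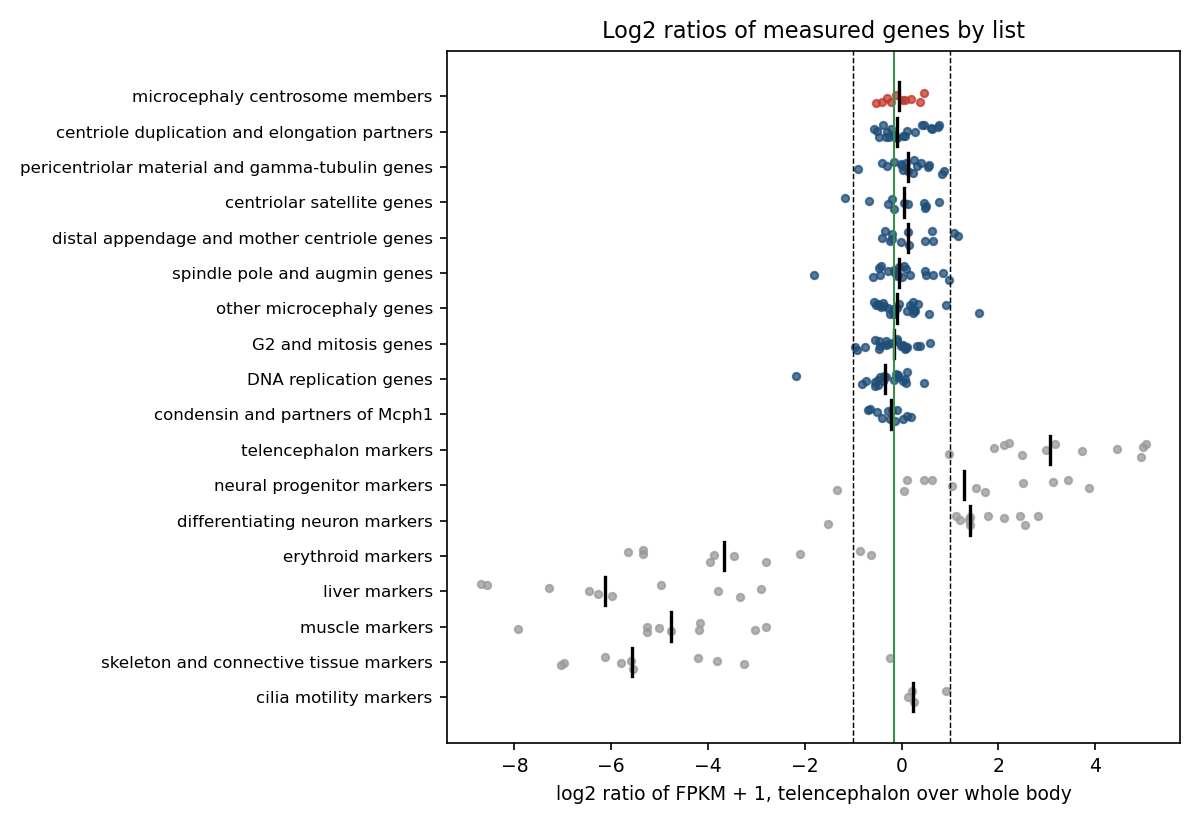
Log2 ratio of FPKM + 1 (telencephalon over whole body, horizontal axis) for each measured gene of the 18 lists, with the median of each list (black bar), the median of all measured genes (green line, -0.16) and 2-fold (dashed). The 10 microcephaly genes (red) lie within 2-fold, as do most centrosome and division genes (blue), whereas tissue markers (grey) spread to both sides.

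Markers of dividing cells were measured beside the members, and their part in the members' values was not tested. The 22 genes of G2 and mitosis, which are transcribed mainly in cycling cells, were all within 2-fold (median -0.15) and summed to 823 FPKM in telencephalon and 950 in whole body. Mki67, the common proliferation marker, stood at 27.3 against 54.5 FPKM, Prc1 at 42.7 against 28.0 and Ect2 at 15.5 against 11.7. Of 20 DNA replication genes 19 were within 2-fold (median -0.35), the exception being the G1/S cyclin Ccne1 (8.50 against 42.1), while Rfc4 stood at 30.2 against 21.5. The sum of the 10 microcephaly genes was 6.97% of the G2 and mitosis sum in telencephalon and 5.91% in whole body. Part of this difference comes from the 4.49 FPKM of Wdr62-203 in telencephalon, on about 4 fragments. Of 12 neural progenitor markers 7 were at least 2-fold higher and 1 lower (summed level 1778 against 1171 FPKM), the most abundant being Vim (958 against 884) and Fabp7 (250 against 74.7). Of 11 markers of differentiating neurons, which have left the cell cycle, 10 were higher and 1 lower (1232 against 387 FPKM), with Map2 at 313 against 56.6 and Ina at 221 against 82.8. Cilia motility genes, included because multiciliated cells amplify centrioles, were low: 6 of 10 were under 1 FPKM in telencephalon and the 4 measured ones were within 2-fold on the FPKM + 1 scale (median 0.23). Foxj1 stood at 2.61 against 2.13 FPKM and Ccdc40 at 6.39 against 2.91, which is 2.20-fold in plain FPKM.

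Promoters were examined because several members are known to be transcribed in a cell-cycle-dependent manner. RefSeq promoter windows (GRCm38.p6, 250 bases before to 50 after the start) were matched for 9 of the 10 genes, Wdr62 with 2 starts; Mcph1 was the other member. Both strands were searched for CCAAT, for TTTGAA and TTCGAA, which are forms of the cell cycle homology element, and for GGCGGGAA, TTTGGCGC and TTTCCCGC, which are forms of the E2F site. None of these words contains another. CCAAT was found in 5 of the 9 genes (Cep152, Stil, Cep135, Aspm and Wdr62), beside 37.4% of all 32851 windows. Of these genes 4 had 3 copies and Cep135 had 1. Copies were not counted over all windows, so there is no background share for them. TTTGAA was found in 3 (Sass6, Cdk5rap2 and Aspm; 17.9% of windows), TTCGAA in Cep152 (1.56%), GGCGGGAA in Cep152 (2.19%), TTTCCCGC in Wdr62 (1.07%) and TTTGGCGC in none (0.514%). The windows of Cep63 and Cenpj held none of the 6.

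The windows of Aspm, Wdr62 and Cep152 are printed, the first as the member with the most fragments, the second as the most abundant in telencephalon and the third as the least abundant, with matches in capitals. They lie at chr1:139454523-139454822 (plus strand), chr7:30280372-30280671 (minus) and chr2:125625064-125625363 (minus). In Aspm the CCAAT matches, all on the opposite strand, start 113, 88 and 12 bases before the start site, and TTTGAA begins at base 7 after it. A match is a description of the letters only, and no binding was measured.
Aspm promoter: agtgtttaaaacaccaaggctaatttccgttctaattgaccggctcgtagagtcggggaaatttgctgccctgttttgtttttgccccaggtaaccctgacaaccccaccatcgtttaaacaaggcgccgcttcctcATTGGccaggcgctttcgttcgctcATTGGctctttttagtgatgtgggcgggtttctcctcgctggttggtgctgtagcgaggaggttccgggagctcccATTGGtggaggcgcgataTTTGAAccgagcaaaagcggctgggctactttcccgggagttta
Wdr62 promoter: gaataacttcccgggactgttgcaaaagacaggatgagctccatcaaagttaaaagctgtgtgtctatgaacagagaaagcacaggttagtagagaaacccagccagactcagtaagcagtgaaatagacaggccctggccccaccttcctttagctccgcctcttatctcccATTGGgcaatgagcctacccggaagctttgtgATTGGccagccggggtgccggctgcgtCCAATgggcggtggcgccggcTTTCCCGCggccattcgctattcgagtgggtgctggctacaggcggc
Cep152 promoter: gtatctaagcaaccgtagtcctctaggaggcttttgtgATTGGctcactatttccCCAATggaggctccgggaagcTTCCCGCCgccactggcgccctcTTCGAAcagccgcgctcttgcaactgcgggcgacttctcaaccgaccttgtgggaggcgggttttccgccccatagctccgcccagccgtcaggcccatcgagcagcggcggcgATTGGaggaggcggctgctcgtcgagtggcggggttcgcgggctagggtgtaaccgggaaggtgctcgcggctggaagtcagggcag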

How the data were processed

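RNA-seq of 1 whole-body and 1 telencephalon library was used. The values are FPKM per gene and per isoform as the authors deposited them; TopHat, Cufflinks, Cuffdiff and GRCm38 are named without versions in the submitters' processing notes, and the sources used here do not give the annotation release. Strand is not marked by the kit, and overlapping genes cannot be separated where they share exons; 5 members share exon bases with another gene, from 2.43% to 8.27% of their own (most for Sass6, with Trmt13).

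Isoforms were matched by identifier to GENCODE M21 (GRCm38); 1 of the 41 isoforms of the 10 genes did not match and stayed out of fragment numbers. Depth and the length lost per transcript were fitted on 1497 (whole body) and 1405 (telencephalon) low values of single-isoform genes. In genes kept out of the fit, 93.4% of 1843 and 91.7% of 1958 values were whole within 0.1 fragments, where chance gives 20%. Fragments of isoforms close to the lost 320 and 336 bases are rough. Differences are log2 ratios after adding 1 FPKM, over genes that reached 1 FPKM in at least 1 library. Poisson and binomial (Clopper-Pearson) intervals of 95% came from scipy 1.17.1. The scripts were tested on simulated data.

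The members, lists and tests were chosen with earlier results of these data known. Named genes were all members, the 2 highest and 1 lowest log2 ratio of each pathway list and the 2 most abundant genes of each marker list; any exception, such as isoforms singled out, was chosen after its values were seen. Of 262 list entries 7 are not analysed here, and some genes that the rule names are not reported here. Protein sequences were not used here.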

Additional observations from a re-analysis of the deposited data

How the results depend on the processing

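The count of members at least 2-fold higher or lower was 0 under pseudocounts of 0.1 and 0.5 FPKM, a common upper quartile, TPM, isoforms with a coding frame and 300 bases or more, rescaling without small RNA, mitochondrial and the 10 most abundant genes, no floor, a floor of 5 FPKM, and the fragment ratio and plain FPKM, which were chosen after seeing the data. Isoforms with a coding frame include those annotated for nonsense-mediated decay, and a setting with protein-coding isoforms alone was not run. Over its protein-coding isoforms Cdk5rap2 stood at 8.92 FPKM in telencephalon against 4.41 in whole body. That is past 2-fold in plain FPKM but not on the FPKM + 1 scale. In TPM the median over all measured genes moved by 0.14 on the log2 scale, and the members' median was 0.08 there; 5 members were above 0 and 5 below under each scaling and pseudocount, but by fragments Cep63 changed sides (log2 ratio -0.01 in place of 0.06). At 1.5-fold 1 member (Mcph1) was lower with pseudocounts of 0.1 or 0.5 FPKM, with none and by fragments, and 1 (Wdr62) higher in TPM. The log2 ratio of Wdr62 was 0.28 from isoforms with a coding frame, 0.29 by fragments and 0.65 in TPM, against 0.47 as reported; the first of these leaves out the short models. Without Wdr62-203 alone, an alternative chosen after seeing the data, it was -0.10. Leaving out a replicate was not possible with 1 library per group. No paired analysis was possible because each group has 1 library. Isoforms with fewer than about 10 fragments, such as Wdr62-203 and Cep63-208, are too shallow to compare.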
